A study of Rattus norvegicus with 12 samples.

Results

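A set of 181 genes was higher in every zebularine library than in every vehicle library of the same sex, in males and in females, in the preoptic area of newborn rats. The genes were chosen from RPKM, the reads of a gene per kilobase of its model, scaled to the reads assigned to all genes. A gene needed at least 0.5 RPKM in at least 3 of the 12 libraries, a lowest zebularine value above the highest vehicle value within each sex, and a mean of at least 1 RPKM over the 12 libraries. Of 29516 identifiers in the files, 16310 passed the filter on low values, here called tested genes, and 14371 of those had a mean of at least 1 RPKM. The 181 genes were 1.26% of these 14371, and the mirror rule, lower in every zebularine library of each sex, found 29, or 0.202%. Because the zebularine contrast itself chose the genes, their higher level under zebularine is given below as a description with no test.

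Zebularine is a nucleoside analogue of cytidine that is built into nucleic acid and traps DNA methyltransferases, the enzymes that place and copy methyl groups on cytosines of CG dinucleotides. Methylation of a promoter generally goes with a silent gene, so loss of methylation can let such a gene be transcribed. The preoptic area is a forebrain region that controls male mating, maternal care, gonadotropin release and body temperature, and in rodents its sexual differentiation takes place around birth.

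Male and female pups received vehicle, saline with 0.1% of a solvent spelled DNMSO in the labels, or zebularine on postnatal days 0 and 1, and tissue was collected on postnatal day 2. The 4 groups (females on vehicle, females on zebularine, and the same for males) each hold 3 libraries. No source used here gives the strain, the dose, the route or the number of animals per library. Nothing in the labels ties each library to an animal of its own. The names of the deposited files carry another number per library, whose meaning the labels do not give and which was not used. The p-values below hold for the spread among the libraries, part or all of which may be technical.

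Reads assigned to genes lay between 15851598 and 30474857 per library, and zebularine male replicate 2 was the shallowest. Among treated females, replicate 3 was unlike the others: the chi-square per degree of freedom of read counts was 21.1 and 22.0 against replicates 1 and 2, and 5.94 between those. Among treated males replicate 1 differed nearly as much, at 17.8 and 17.7 against replicates 2 and 3, and 6.94 between those. Without that male library 228 genes met the rule, 180 of the 181 among them, and the median male log2 change of the 181 genes was 0.41. The files list Ensembl identifiers without symbols, and none of them matched the gene table used here. The genes are therefore described by identifier, level and pattern, and the labelled tissue, the labelled sexes and any cell type could not be checked against marker genes. In bulk tissue, more cells of a type and more RNA per cell cannot be told apart.

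Most of the 181 genes differed between treatments by a modest step. Folds here and below are on the scale of log2(RPKM + 0.5), which understates the change of low genes. The median fold of zebularine over vehicle was 1.57 in females, with quartiles of 1.22 and 1.89 and a range from 1.02 to 7.95. In males the median fold was 1.37, with quartiles of 1.17 and 1.66 and a range from 1.04 to 5.70. Over the 14371 tested genes of at least 1 RPKM the median fold was 1.00 in both sexes. At least 2-fold higher in both sexes were 14 genes, 33 were so in females and 15 in males. The share of the 14371 tested genes that reached 2-fold is not given here, so these counts have no background.

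**Figure D1:**
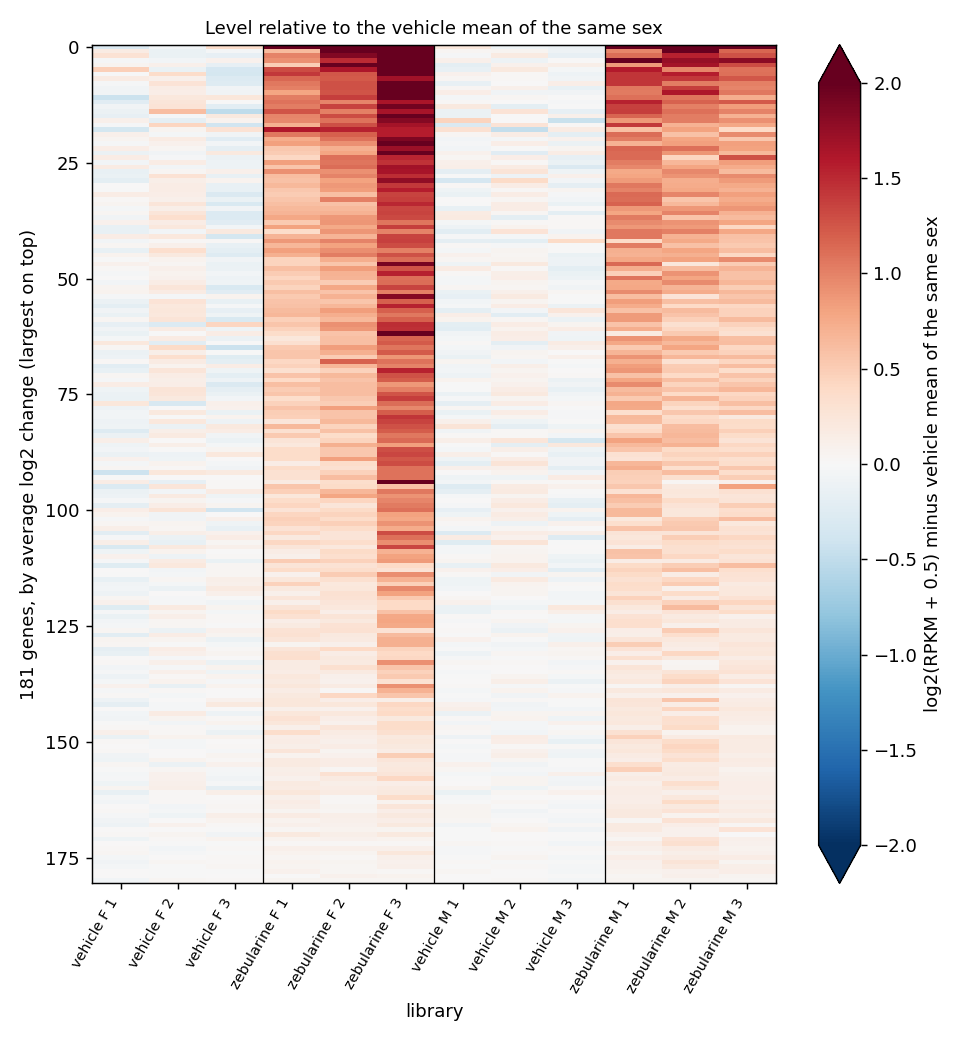
Each row is 1 of the 181 genes, ordered by the average of the female and male log2 change with the largest on top, and each column is a library. Color gives log2(RPKM + 0.5) minus the vehicle mean of the same sex, cut off at 2 in either direction; the 6 treated columns are red throughout, as the rule requires, and zebularine female replicate 3 is the darkest.

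The gap between the groups, unlike the difference of their means, was small for many of the genes. The lowest treated library exceeded the highest vehicle library of its sex by a median of 1.13-fold in females and 1.12-fold in males. Taking the smaller gap of the sexes, 57 of the 181 genes had more than 1.2-fold in both, and 101 had under 1.1-fold in at least 1 sex. The members nearest the edge, at 25.7 and 100.2 RPKM, had gaps of 1.0004 and 1.0006, and the nearest genes outside, at 112.3 and 1.97 RPKM, had ratios of 0.999 and 0.998. By mean level the lowest members stood at 1.002 and 1.05 RPKM, and the highest genes dropped for a low mean at 0.998 and 0.996 RPKM.

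For most of the genes the counting intervals of some treated and some vehicle library overlapped in at least 1 sex. With exact 95% Poisson intervals on the reads, every treated library lay above every vehicle library with no overlap of intervals for 49 genes in females, 44 in males and 27 in both sexes. The rule chose the genes for values that are apart in each sex. The share of all tested genes is not given here, so these counts have no background. An overlap of intervals does not place a difference within counting error, so these counts are strict. Reads are not counted by molecule, so these intervals hold for counting error only. The fewest reads in any library had a median of 108 over the 181 genes; 98 genes had at least 100 reads in each library, 7 had fewer than 10 in some library, and none was at 0.

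Across the sexes, the treated and vehicle libraries were also apart for many of the genes, which the rule did not ask for. In 128 of the 181 genes each of the 6 treated libraries exceeded each of the 6 vehicle libraries, a pattern found in 0.891% of the 14371 tested genes. A gene with this pattern necessarily passes the rule, so the share is a description. For the other members, a vehicle library of one sex reached the level of a treated library of the other. In females alone 5.25% and in males alone 8.64% of the 14371 genes had every treated library above every vehicle library.

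ENSRNOG00000002217 had the largest average change of the 181 genes. Its RPKM was 0.108, 0.202 and 0.445 in vehicle females and 2.45, 5.78 and 10.4 in zebularine females. In vehicle males it was 0.357, 0.197 and 0.183, and in zebularine males 3.69, 3.72 and 3.78. The 3 treated males were close together while the treated females spread over a wide range, and vehicle libraries of both sexes were near the floor, on 2 to 7 reads. The fold was 7.95 in females and 5.70 in males, and without zebularine female replicate 3 the female fold was 5.82.

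ENSRNOG00000032844 came next by average change. Vehicle females stood at 0.306, 0.159 and 0.201 RPKM and zebularine females at 0.610, 2.83 and 7.37 RPKM. Vehicle males stood at 0.150, 0.156 and 0.0867 RPKM and zebularine males at 0.738, 2.13 and 0.905 RPKM. The treated libraries of each sex were uneven, and the lowest treated female rested on 15 reads against 9 in the highest vehicle female. Its female fold of 4.27 became 2.67 without zebularine female replicate 3, and its male fold was 2.63.

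**Figure D2:**
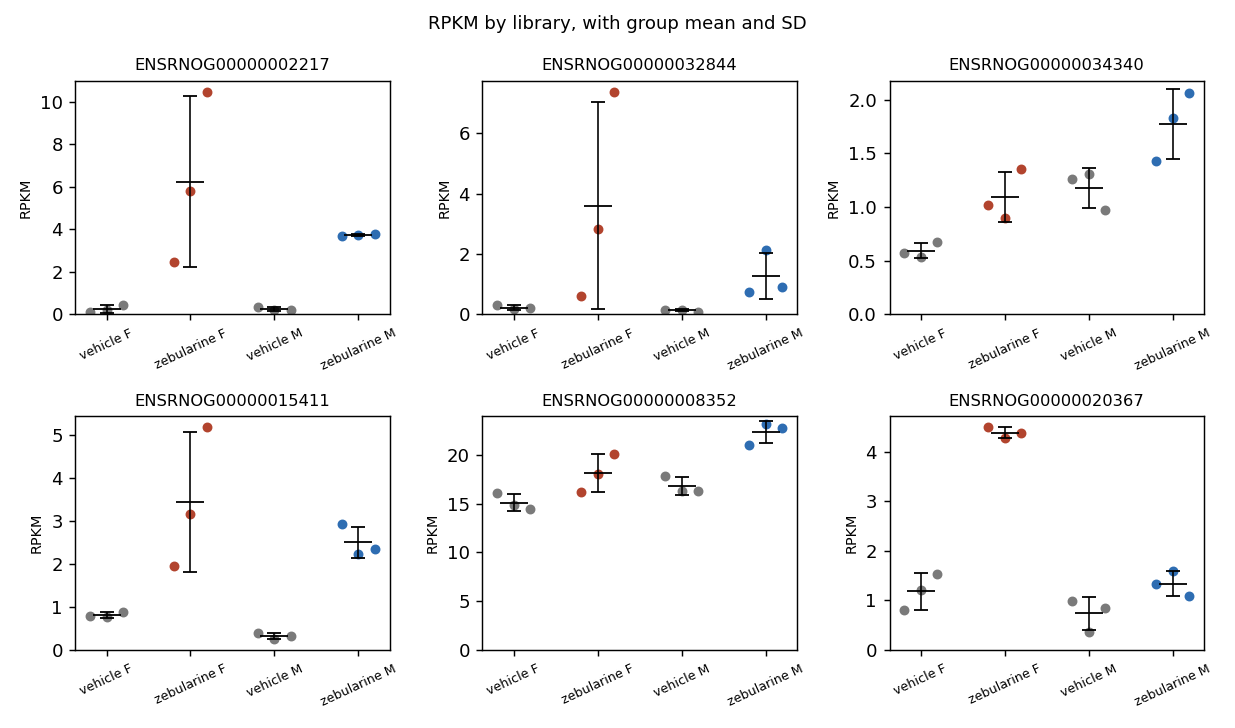
RPKM of 6 of the 181 genes by group (F female, M male), 1 point per library, with the group mean and SD (n = 3) as a bar. The treated females of ENSRNOG00000002217 and ENSRNOG00000032844 spread widely, from 2.45 to 10.4 and from 0.610 to 7.37 RPKM, while those of ENSRNOG00000020367 lie close together near 4.39 RPKM.

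The 181 genes lay at low levels. Their median over all libraries was 3.40 RPKM, where the 14371 tested genes had 10.2 RPKM. Between 1 and 2 RPKM lay 60 of them, 33.1% against 11.1% of the tested genes, and only 3 reached 50 RPKM. Those 60 made up 3.75% of the tested genes at that level, while the 3 made up 0.181% at theirs. Gene models had a median length of 2023 bases against 2142 in the tested genes, which were put into 4 equal classes by length. From the shortest class to the longest, these held 18.2%, 34.8%, 27.6% and 19.3% of the 181 genes, so that models of middle length were the more frequent. Over the 14371 tested genes of at least 1 RPKM the median log2 change in these classes lay between -0.02 and 0.01 in each sex.

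The genes with the smallest response were the more abundant ones, and the other classes did not fall in order of level. In the 14 genes at least 2-fold higher in both sexes the median level was 2.47 RPKM and the highest 9.42 RPKM. The 50 genes whose smaller fold was between 1.5 and 2 had a median level of 2.69 RPKM, and the 54 genes between 1.2 and 1.5 one of 2.08 RPKM. The 63 genes under 1.2-fold in at least 1 sex had a median of 11.0 RPKM and a median log2 change of 0.19 in both sexes. The rule admits a small step only where the spread within the groups is smaller still.

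The most abundant of the 181 genes stood apart from the other abundant ones. It averaged 215.5 RPKM over the libraries and was 153.3, 193.4 and 162.0 RPKM in vehicle females and 216.4, 244.1 and 442.5 RPKM in zebularine females. In males it was 156.5, 164.3 and 154.3 RPKM under vehicle and 228.3, 253.2 and 217.8 RPKM under zebularine. Its fold was 1.69 in females and 1.47 in males, on at least 2110 reads in each library. Without zebularine female replicate 3 its female fold was 1.36. The 5 next most abundant genes, between 45.4 and 100.2 RPKM, had folds from 1.07 to 1.21 in females and from 1.08 to 1.19 in males.

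Within zebularine females the 181 genes were not evenly high. Zebularine female replicate 3 held the highest of the 3 values for 162 of the 181 genes, or 89.5%, against 42.0% of the 14371 tested genes. The rule names no library as the highest, but it used these same values, so the order and its comparison with genes not chosen this way are a description. Replicate 1 was the lowest for 114 genes, 63.0% against 30.4% of the tested genes, and replicate 3 for 4, 2.21% against 34.9%. Relative to the mean of replicates 1 and 2, replicate 3 was higher in 170 genes, by a median of 1.43-fold, where the median over the tested genes was 1.01-fold. At least 2-fold higher in it were 20 of the 181 genes, 11.0%, against 2.33% of the tested genes. The depth of this library, 21372298 reads, was close to the 21286563 of replicate 1.

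The genes that were lower in every treated library showed a mirrored order. Of those 29 genes, 20 were lowest in zebularine female replicate 3 among the treated females and 3 were highest there. Of the tested genes of at least 1 RPKM, 34.9% were lowest and 42.0% highest in it. The mirror rule used these same values, so this order too is a description. Their median level was 25.5 RPKM, and their median log2 change was -0.15 in females and -0.16 in males. Without zebularine female replicate 3 the rule for higher genes found 190, of which 173 were among the 181; the rest of the 181 no longer met the filter or the minimum mean. The size of the female change depended on this library. Without it the median female fold was 1.37, and 19 genes in place of 33 were at least 2-fold higher in females. The male median was also 1.37, but with no male library left out.

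**Figure D3:**
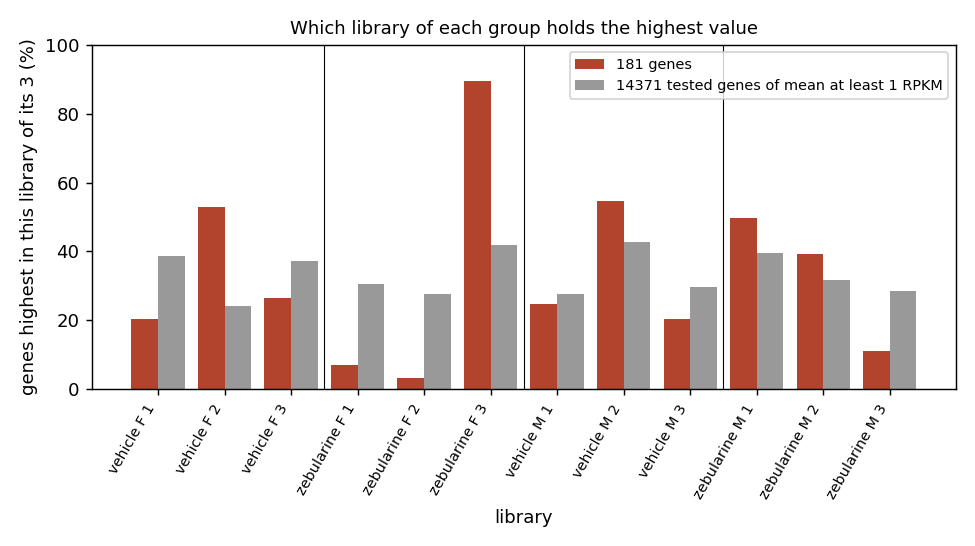
For each library, the bars give the percentage of genes that were highest in it among the 3 libraries of its group, for the 181 genes and for the 14371 tested genes of at least 1 RPKM. Zebularine F 3 holds 89.5% of the 181 genes, and the next highest bar of the 181 genes is vehicle M 2 at 54.7%.

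In the other 3 groups the 181 genes also tended to move together. Vehicle female replicate 2 was the highest of its group for 96 of the 181 genes, while 24.1% of the tested genes were highest there. Vehicle male replicate 2 was the highest for 99 genes, 54.7% against 42.6%. Zebularine male replicate 3 was the highest for 20 genes, 11.0% against 28.5%, and replicate 1 for 90, 49.7% against 39.6%. Over the 9 libraries outside zebularine females, each gene's deviations from its group means were correlated with the mean standardised deviation of the other 180 genes. The median r was 0.41, with 142 of the 181 genes above 0 and 67 above 0.5. For the other 14190 tested genes of at least 1 RPKM, the median r with the same profile was -0.02, and 8.24% were above 0.5. Each r rests on 9 points from 3 groups, on libraries that all genes share and on values that the rule used, so it is a description. The higher libraries had 27122792, 27745882 and 30474857 reads, the deepest of their group in 2 of 3 cases, and whether depth has a part in this was not tested.

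The female change exceeded the male change in 132 of the 181 genes, 72.9% against 50.9% of the 14371 tested genes. Without zebularine female replicate 3 it did so in 71, or 39.2%, against 48.9%. The majority with a larger female change therefore turned into a minority once this library was left out. It was the highest treated female for 162 of the 181 genes, so leaving it out lowered the female change of most. All treated males were kept, so the counts without it compare a trimmed group with a whole one.

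**Figure D4:**
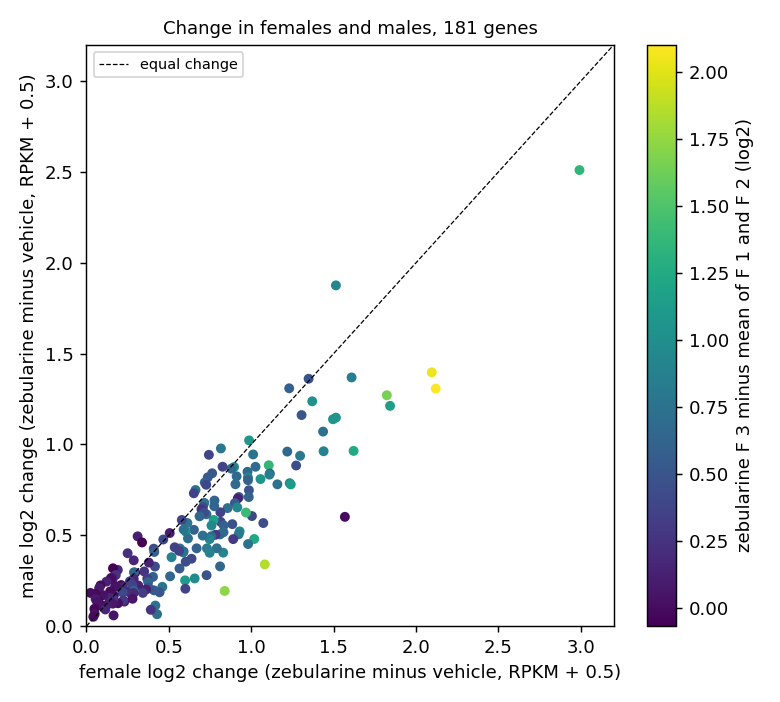
Each point is 1 of the 181 genes, with its log2 change in females on the x axis and in males on the y axis (zebularine minus vehicle, both on the log2(RPKM + 0.5) scale), and the dashed line marks equal change. Color gives how far zebularine female replicate 3 stood above the mean of replicates 1 and 2 on the log2 scale; 132 of the points lie below the line, and the brightest points are among those farthest below it.

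Whether the change differed between the sexes was computed for each gene with limma as the male minus female difference of the zebularine effect, fitted over all 16310 tested genes. The rule used these values and admits no gene that changed in 1 sex alone or in opposite directions, which limits how far the sexes can differ in the 181 genes, so their counts are a description. None of the 181 genes passed a Benjamini-Hochberg adjusted threshold of 0.05, by limma or by limma-voom on the whole reads, and neither did any tested gene (0%). At an unadjusted p under 0.05 there were 2 of the 181 genes, both with the larger change in females, against 4.05% of all tested genes. Without zebularine female replicate 3 there were also 2, with 1 in each direction, and the share of all tested genes in that fit is not given here. ENSRNOG00000020367 had the smallest p for this difference. Its RPKM was 0.794, 1.21 and 1.52 in vehicle females, 4.51, 4.29 and 4.37 in zebularine females, 0.988, 0.364 and 0.844 in vehicle males, and 1.33, 1.59 and 1.08 in zebularine males. The treated females stood above all other libraries, and the male groups were close to each other. The log2 change was 1.57 in females and 0.60 in males, a difference of -0.97 ± 0.31 (SE). Its gene model has 396 bases and between 4 and 41 reads per library. Unlike most of the 181 genes, it was not highest in zebularine female replicate 3, and its female log2 change was 1.57 without that library too. ENSRNOG00000010768 had the smallest p among genes with the larger change in males. Its log2 change was 0.08 in females and 0.21 in males, and the difference of 0.13 ± 0.07 (SE) did not pass (limma adjusted p = 0.976).

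Males and females were next compared within each treatment, contrasts the rule did not use, though on the same libraries. The rule favours genes with a small spread within groups, and that spread also enters the p-values and intervals of these contrasts. Under either treatment, the counts and intervals of the 181 genes are therefore a description. Under vehicle none of the 181 genes passed by limma or limma-voom, where 0.0123% of all tested genes passed by limma, and 3 of the 181 had an unadjusted p under 0.05, against 2.08% of the tested genes. The median log2 difference of the 181 genes, male minus female, was -0.02 under vehicle, and 104 of them, 57.5%, were higher in females, near the 52.3% of all tested genes. ENSRNOG00000034340 had the smallest p among genes higher in vehicle males, at 1.18 ± 0.183 against 0.592 ± 0.0716 RPKM in vehicle females (SD, n = 3), but on a gene model of 138 bases and 2 to 6 reads per library. Its log2 difference of 0.62 ± 0.16 (SE) did not pass (limma adjusted p = 1.00). ENSRNOG00000015411, the gene with the fourth largest zebularine change, was at 0.315 ± 0.0604 RPKM in vehicle males and 0.800 ± 0.0653 RPKM in vehicle females (SD, n = 3). These values did not overlap, but they rested on 9 to 12 reads in vehicle males and 24 to 26 in vehicle females. The log2 difference of -0.67 ± 0.24 (SE) did not pass either (limma adjusted p = 1.00). Under zebularine its male libraries, at 2.92, 2.23 and 2.35 RPKM, lay within the range of the female libraries, from 1.96 to 5.19 RPKM.

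Under zebularine none of the 181 genes passed by limma or limma-voom, where 0.0307% of all tested genes passed by limma. At an unadjusted p under 0.05 were 21 of the 181 genes, 14 higher in females and 7 higher in males, a share of 11.6%, close to the 11.1% of all tested genes. Without zebularine female replicate 3 there were 12, of which 5 were higher in females and 7 in males. The share of all tested genes in that fit is not given here, so this count has no background. The median log2 difference was -0.17, against -0.02 over all tested genes, and 137 genes, 75.7%, were higher in females, against 54.0% of all tested genes. Without zebularine female replicate 3, and with all treated males kept, the median was 0.01, with 86 genes, 47.5%, higher in females. For that count too the share of all tested genes is not given. ENSRNOG00000020367 had the smallest p, its log2 difference being -1.42 ± 0.22 (SE, limma adjusted p = 0.101; 0.0226 to 0.373 over the alternatives, passing in 2 of them). Its treated males and treated females did not overlap. ENSRNOG00000008352 had the smallest p among genes higher in treated males, at 22.3 ± 1.15 RPKM against 18.1 ± 1.97 RPKM in treated females (SD, n = 3), on 218 to 450 reads per library. Its log2 difference of 0.30 ± 0.08 (SE) did not pass (limma adjusted p = 0.392). At the median precision of the 181 genes, a difference between the sexes within 1 treatment had a 95% interval of 1.30-fold in either direction.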

How the data were processed

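The 12 libraries hold total RNA of rat preoptic area, sequenced after a Trizol extraction and a standard Illumina preparation, per the labels' protocols. The authors deposited 1 file of RPKM per library. The submitters' processing notes name the aligner TopHat. Not given in the sources used here are its version, the counting tool, strand use, the genome build and the annotation, and genes that overlap or nearly match in sequence could share reads. Groups and replicate numbers come from the titles.

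The deposited RPKM values were whole multiples of 1 step per gene (within 0.002 of a read), which gave the whole reads, the library totals and gene model lengths for all 23427 genes above 0. In a gene of median length, 3 reads, the limit that a count of 0 allows, correspond to between 0.0617 and 0.119 RPKM, for counting error only.

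The 181 genes, the lists and the tests were chosen with earlier results of these data known. log2(RPKM + 0.5) was fitted with limma 3.58.1 (R 4.3.3, eBayes with trend) as 4 group means, two-sided, with Benjamini-Hochberg adjustment over 16310 genes. The fit was also run on simulated reads, in which only well-covered genes were changed, by larger folds than most of the 181 genes show. That run does not cover genes on few reads, small changes or a library that stands apart. Other steps used Python 3.11.15 with numpy 2.4.6, scipy 1.17.1, pandas 2.3.3 and matplotlib 3.10.9. No identifier matched the RefSeq table of assembly GRCr8 (0 matches), so no gene list, marker list or sequence is analysed here. Because identifiers cannot be paired with symbols, at most 2 are named per comparison and direction: those with the largest average change, and the smallest p in each direction of a tested contrast. The alternatives were other pseudocounts, filters and scalings, thinning, a replicate block, only the compared groups, robust limma, limma-voom, and leaving out each library.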

Additional observations from a re-analysis of the deposited data

How the results depend on the processing

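The number of genes that met the rule was 165 with median-ratio scaling, 146 with quantile normalization and 149 with reads thinned to the shallowest library, of which 158, 136 and 120 were among the 181. The mirror rule then found 47, 45 and 34 genes. Leaving out 1 library makes the rule easier to meet and gave from 190 to 374 genes; it moved the number by over 1.5 times without vehicle female replicate 3 (290) and without zebularine female replicate 2 (374). With no minimum mean 234 genes met it, and 121 with at least 2 RPKM. The median log2 change of the 181 genes lay between 0.45 and 0.79 in females and between 0.41 and 0.49 in males over fits without 1 library, and between 0.55 and 0.76 and between 0.38 and 0.53 over other pseudocounts and scalings.

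None of the 181 genes differed between the sexes under vehicle or in its zebularine effect under any alternative run with limma or limma-voom. Under zebularine 1 gene, ENSRNOG00000020367, passed with a pseudocount of 1 and without vehicle male replicate 2, so that fits without 1 library gave from 0 to 1. Over all tested genes, the number that differed by sex under vehicle was 5 with no filter on low values and 1 with only the compared groups in the fit, against 2, and stayed at 2 in each fit without 1 library. Under zebularine it was 3 with the replicate block and with limma-voom and 1 with only the compared groups, against 5, and from 3 to 18 without 1 library, with 18 without zebularine female replicate 1 and 3 without zebularine male replicate 2 or 3. The zebularine effect differed by sex in 2 genes with no filter on low values, and in 0 otherwise. The cause was not tested.

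Same-numbered libraries of different groups correlated from -0.35 to 0.37 over 18 pairs. Of 12 libraries, 4 correlated best with their own number. These values show no pairing by the replicate numbers of the titles, but with 3 libraries per group they cannot exclude one. The other number in the names of the files was not used. With the replicate block no call among the 181 genes changed, and 517 genes had each treated library above the vehicle library of the same sex and number.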
